A study of Mus musculus with 2 samples.

Results

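The histone genes examined here are the 67 protein-coding genes, of 21887 on the nuclear chromosomes, whose current symbol starts with Hist1h, Hist2h, Hist3h or Hist4h, or with H1f, H2ac, H2bc, H3c or H4c and a number. They were chosen by name in RefSeq's table of genes for GRCm38.p6 (mm10). No measured value enters this naming rule, although earlier results of these data were known when it was chosen. By class they comprise 17 H2A, 16 H2B, 12 H3, 12 H4 and 10 H1 genes. The genes were set against CUT&RUN libraries from the hypothalamic paraventricular nucleus (PVN) of adult wild-type (WT) mice, 1 made with an antibody to Otp and 1 with IgG, an antibody without a target that measures background cutting. The series asks whether Otp (Orthopedia, a homeodomain transcription factor of PVN neurons) binds the Mc4r promoter. The labels name neurons as the cell type, give the same tissue and genotype for each library, and describe isolation of nuclei by douncing and a sucrose cushion. The sources used here do not state strain, sex or the number of animals per library. Each antibody has a single library, so every value below is a description of these libraries and carries no p.

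Histones are the proteins around which DNA is wound. H2A, H2B, H3 and H4 form the core of the nucleosome and H1 binds the linker between nucleosomes. Most mouse histone genes lie in dense clusters, are switched on in S phase to package newly copied DNA, and give short mRNAs without introns that end in a stem-loop instead of a poly(A) tail. H2A and H2B genes often stand head to head around a shared promoter. Mature neurons do not divide, although histone variants that are made outside S phase are turned over in them.

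The members lay on 4 chromosomes. Chromosome 13 held 53 of them (the Hist1 cluster, in older symbols), chromosome 3 held 10 (Hist2), and chromosomes 6 and 15 held 2 H1 genes each, far from any other member. Gene length had a median of 496 bp and ran from 375 to 37455 bp. An Otp region (an entry of the authors' peak list) was counted for a gene when its summit lay within 1 kb of either end of the gene.

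Promoter sequences of 6 members are shown first, to show the range of promoters behind the counts below, with and without a region: the gene with the strongest region, an H2A gene that shares its promoter with an H2B gene, an H4 gene with a region, a germ cell H2A gene without one, and an H3 and an H4 gene without one. Each runs 5′ to 3′ from 250 bases before to 50 bases after the start of the gene, as RefSeq gives it for GRCm38.p6. Capitals mark matches on either strand to 5 motifs: CCAAT (the CCAAT box), TATAAA (the TATA box), the letters ATTTGCA (the first 7 of the octamer that POU factors bind), GGGCGG (the GC box) and TAATTA (a core that homeodomains bind). No 2 motif matches overlapped in any member's promoter.
H3c6 (chr13:23562336-23562635, reverse strand, region present): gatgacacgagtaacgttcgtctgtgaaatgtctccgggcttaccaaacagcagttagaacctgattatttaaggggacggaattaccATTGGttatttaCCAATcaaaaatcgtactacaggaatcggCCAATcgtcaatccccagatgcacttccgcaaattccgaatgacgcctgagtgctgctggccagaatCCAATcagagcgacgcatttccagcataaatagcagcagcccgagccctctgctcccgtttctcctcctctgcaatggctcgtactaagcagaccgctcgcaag
H2ac12 (chr13:22035594-22035893, reverse strand, region present): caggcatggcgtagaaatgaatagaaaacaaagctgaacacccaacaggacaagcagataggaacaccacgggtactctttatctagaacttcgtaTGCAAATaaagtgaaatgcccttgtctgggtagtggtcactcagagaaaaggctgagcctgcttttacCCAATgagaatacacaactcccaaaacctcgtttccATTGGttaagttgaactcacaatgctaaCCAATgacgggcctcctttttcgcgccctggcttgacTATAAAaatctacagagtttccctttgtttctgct
H4c6 (chr13:23551619-23551918, reverse strand, region present): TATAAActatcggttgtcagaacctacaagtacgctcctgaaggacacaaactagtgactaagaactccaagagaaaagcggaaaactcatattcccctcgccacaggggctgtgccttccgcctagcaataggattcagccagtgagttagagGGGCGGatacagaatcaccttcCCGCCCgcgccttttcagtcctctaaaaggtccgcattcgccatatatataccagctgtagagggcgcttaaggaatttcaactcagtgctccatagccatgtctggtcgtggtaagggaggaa
H2ac1 (chr13:23934187-23934486, forward strand, no region): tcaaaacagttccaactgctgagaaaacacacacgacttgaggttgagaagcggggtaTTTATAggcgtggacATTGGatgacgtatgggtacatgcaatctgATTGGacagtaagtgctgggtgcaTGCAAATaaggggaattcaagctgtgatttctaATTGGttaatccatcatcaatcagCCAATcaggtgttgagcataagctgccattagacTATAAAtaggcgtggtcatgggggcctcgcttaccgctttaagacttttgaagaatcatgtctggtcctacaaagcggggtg
H3c4 (chr13:23575513-23575812, forward strand, no region): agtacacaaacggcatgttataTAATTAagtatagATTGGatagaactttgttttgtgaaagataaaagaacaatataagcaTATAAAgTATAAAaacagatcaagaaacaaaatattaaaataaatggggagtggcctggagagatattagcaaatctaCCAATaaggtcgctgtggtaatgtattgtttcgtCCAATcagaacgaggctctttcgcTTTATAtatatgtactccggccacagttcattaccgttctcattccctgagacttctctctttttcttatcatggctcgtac
H4c2 (chr13:23756687-23756986, forward strand, no region): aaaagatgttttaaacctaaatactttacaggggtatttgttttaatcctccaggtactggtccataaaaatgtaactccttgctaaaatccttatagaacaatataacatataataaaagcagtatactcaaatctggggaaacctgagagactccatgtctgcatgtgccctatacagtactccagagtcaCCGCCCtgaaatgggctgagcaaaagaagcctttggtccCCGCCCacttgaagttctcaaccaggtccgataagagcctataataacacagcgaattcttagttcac
Counted from the first printed base, the Otp summit fell at base 177 of the H3c6 sequence, at base 193 of H2ac12 and at base 174 of H4c6.

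Otp regions lay at the ends of 45 of the 67 histone genes (67.2%, 95% exact binomial interval 54.6 to 78.2%), against 27.2% of all protein-coding genes. The genes are short, and short genes otherwise rarely had a region. Among other genes within 20% of each member's length the mean share was 7.20%, so the share of histone genes was 9.33 times as high. At 7 of 91 genes, 91 being the median number per member, the exact binomial interval is 3.15 to 15.2%, so the ratio is imprecise. Counted once each, the 11819 such genes had a region in 23.7% of cases. The mean share gives each member equal weight, whereas this pool is filled mainly by members with far more than 91 such genes. The 45 genes drew on 33 distinct regions, because neighbours share them: 18 regions served at least 2 histone genes and 15 served 1. A region at the end of 1 gene is thus often the region of the next, and the genes are not independent of each other. In the IgG list, 0 of 67 genes had a region at an end (interval 0 to 5.36%), against 0.379% of all protein-coding genes. Intervals here and below cover counting error only.

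**Figure D1:**
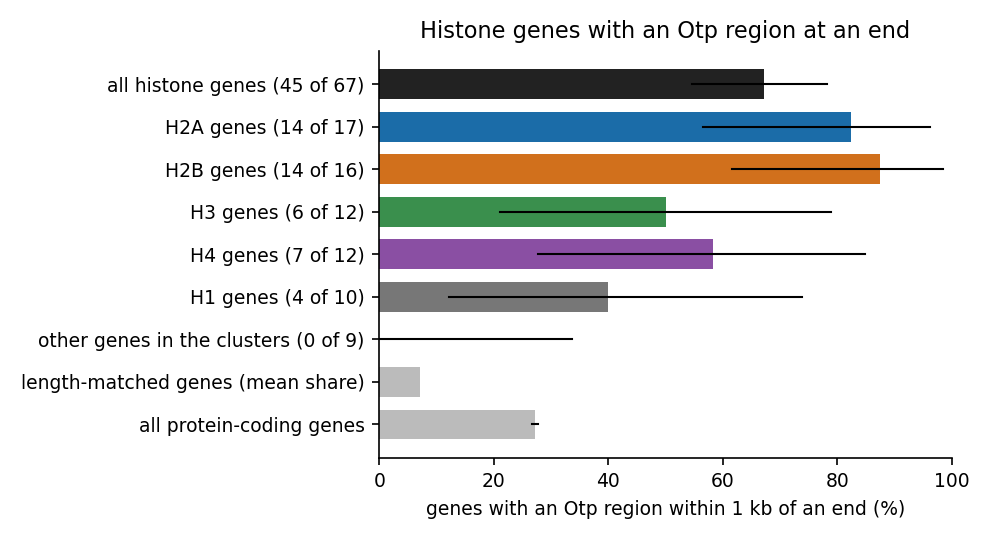
Share of genes with an Otp region whose summit lay within 1 kb of a gene end, in percent. Bars show all histone genes, each class, other genes in the clusters, length-matched genes and all protein-coding genes. The other genes in the clusters are protein-coding and include those in gaps between parts of the chromosome 13 cluster. Lines are 95% exact binomial intervals (none is drawn for the mean share of length-matched genes); H2A and H2B genes had the highest shares at 82.4% and 87.5%, and length-matched genes stood at 7.20%.

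The regions were of ordinary strength for regions at gene ends. Fold enrichment, the ratio over local background that the authors' peak caller gave, had a median of 7.55 (range 4.05 to 10.4) at histone genes and 7.59 (3.72 to 40.5) at the 5494 other regions at gene ends. The pileup at the summit, in tags worked out from the deposited fold and p, had a median of 18 tags (9 to 28) at histone genes and 15 tags (6 to 129) at the others. The local background of the caller had a median of 1.68 tags (0.939 to 2.61) at histone genes, against 1.16 tags at the others and a genome background of 0.512 tags. Histone regions thus stood on a higher local background, and none reached the strength of the highest regions elsewhere.

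The IgG library was shallower, with a genome background of 0.0873 tags, lower by a factor of 5.87. The IgG regions with a recovered pileup had at least 4 tags. Scaled by the background ratio, the 33 histone regions corresponded to 1.53 to 4.77 IgG tags, and 6 of them reached 4. Those 6 lay at the ends of 14.9% of histone genes, and regions that reached 4 lay at the ends of 6.48% of all protein-coding genes. At the 226 regions found in both lists the IgG pileup was a median of 0.305 of the Otp pileup, and scaled by that ratio 26 of the 33 reached 4. Those 226 were selected by having an IgG region, so the ratio leans towards high IgG pileups. The 26 are therefore not regions told apart from IgG. Among other regions at gene ends, 21.7% reached 4 tags by the first scaling and 61.0% by the second. None of the 33 overlapped an IgG region, and the nearest IgG summit to any member was 1185878 bp away. For regions below 4 tags scaled by the background ratio, a difference from IgG was not detectable at this depth. The 6 that reached 4 scaled to at most 4.77 tags, so the lack of an IgG region says little at them too.

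**Figure D2:**
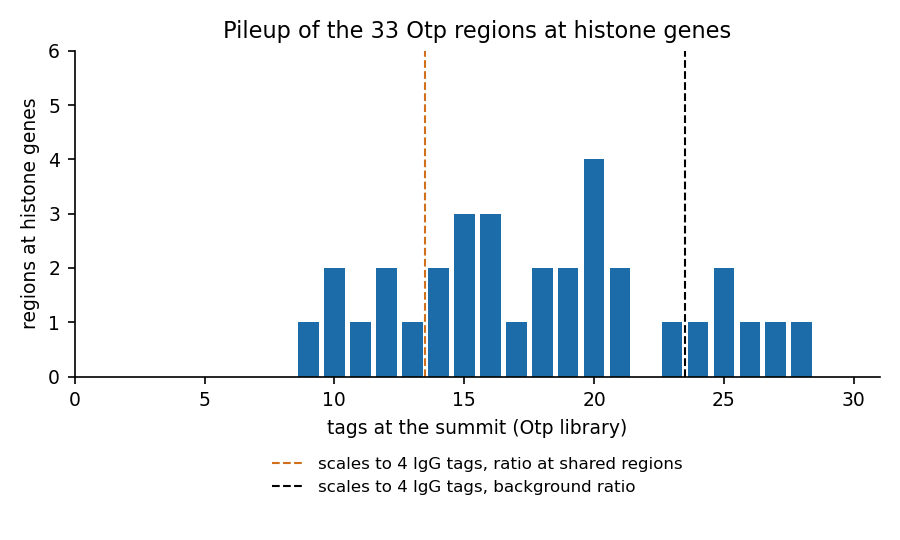
Number of Otp regions at histone genes by tags at the summit (33 regions in all, 9 to 28 tags). Dashed lines mark the pileups that scale to 4 IgG tags, the lowest IgG pileup, 14 tags by the ratio at shared regions and 24 tags by the background ratio; 26 and 6 regions lie at or above them.

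H2A and H2B genes had a region most often. Of the 17 H2A genes 14 had one (82.4%, 56.6 to 96.2%), and of the 16 H2B genes 14 (87.5%, 61.7 to 98.4%). The length-matched shares were 6.49% for H2A and 13.3% for H2B. Together 28 of 33 had a region (84.8%, 68.1 to 94.9%), against 13 of 24 H3 and H4 genes (54.2%, 32.8 to 74.4%). These intervals overlap, and neighbours share regions, so the classes are not shown to differ.

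Neighbouring H2A and H2B genes had their near ends 163 to 280 bp apart in 11 places. Annotated strands show 9 of these pairs head to head, and for H2ac6 with H2bc4 and H2ac20 with H2bc21 the strand of the H2B gene was not in the table used. Of the 11 pairs, 9 had an Otp summit within the gap or up to 50 bp beyond it (81.8%, 48.2 to 97.7%). In 8 of the 9 the summit lay in the gap itself. The pileups at the 9 regions ran from 16 to 28 tags with a median of 20. Between H2ac13 and H2bc13 the summit stood almost in the middle of the gap, 115 bp from H2ac13 and 114 bp from H2bc13, with 17 tags (95% Poisson interval 9.90 to 27.2). Between H2ac6 and H2bc4 it lay 12 bp from H2bc4, in a region of 326 bp (chr13:23683952-23684277) at 25 tags (16.2 to 36.9) and 10.4-fold enrichment. The summit at H2ac8 and H2bc8 lay 7 bp inside H2ac8, with 28 tags (18.6 to 40.5), the highest pileup at a histone gene. The H2ac12 sequence printed above has CCAAT on either side of the summit, and the region it shares with H2bc12 (chr13:22035628-22035847) had 20 tags (12.2 to 30.9) and a fold enrichment of 9.12.

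The other pairs were similar to these. H2ac7 and H2bc7 shared 26 tags (17.0 to 38.1) with a fold enrichment of 7.83. H2ac23 and H2bc23 shared 20 tags (12.2 to 30.9) with 8.25, and H2ac22 and H2bc22 shared 19 tags (11.4 to 29.7) with 8.33. Each of these summits lay in the gap, so 1 region served both genes. H2ac11 and H2bc11 shared 20 tags (12.2 to 30.9) with 7.22, and H2ac15 and H2bc15 shared 16 tags (9.15 to 26.0) with 7.78.

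A region between facing genes was common elsewhere too. Of 631 other head-to-head pairs of protein-coding genes with starts up to 400 bp apart, 53.6% had an Otp summit between the starts or up to 50 bp beyond. Of the 142 with gaps in the range of the histone pairs, 74.6% had one, a value inside the interval of the histone pairs. Gaps of histone pairs were read from gene ends and those of other pairs from annotated starts. H2A and H2B genes outside such pairs had a region in 9 of 11 cases. These include H2ac24, which faces H4bc24, a gene with an H2B name among its older symbols that the naming rule leaves out.

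**Figure D3:**
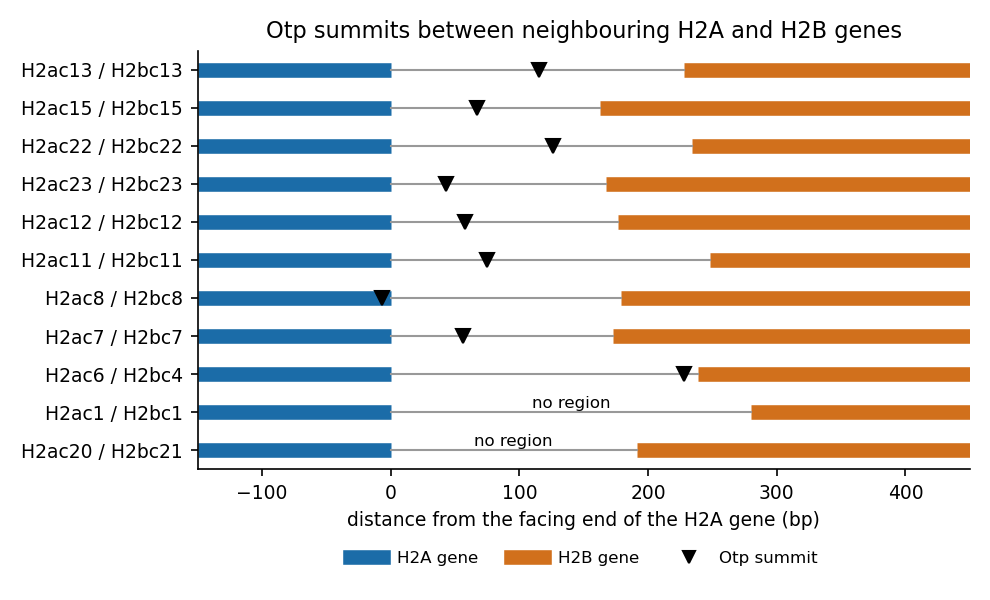
Neighbouring H2A (blue) and H2B (orange) genes whose near ends lie within 400 bp, with the distance in bp from the near end of the H2A gene on the horizontal axis and the Otp summit as a triangle. Of 11 pairs, 9 have a region, with the summit from 7 bp inside H2ac8 to 228 bp outside H2ac6; H2ac1 with H2bc1 and H2ac20 with H2bc21 have none.

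The pairs H2ac1 with H2bc1 and H2ac20 with H2bc21 had no summit at the gap. H2ac1 and H2bc1 encode the testis variants TH2A and TH2B, and the nearest Otp summit was 160973 bp from H2bc1. H2ac20 and H2bc21 lie on chromosome 3. H2bc21 encodes the variant known in mouse olfactory neurons as H2BE, and its nearest summit was 1291 bp away. H2ac20 was counted only through a region of H2ac21, 632 bp from its end. Of the other H2A genes, H2ac10 and H2ac4 had no region, with the nearest summits at 2136 and 4473 bp. Outside the 11 pairs, H2ac24 had 24 tags (15.4 to 35.7) with a fold enrichment of 9.90, and H2bc3 had 21 tags (13 to 32.1) with 7.57. The nearest annotated gene end to that last summit, at 101 bp, belonged to the pseudogene H2ac5-ps. On chromosome 3, H2ac19 had 21 tags (13 to 32.1) with the summit at its start, H2ac21 had 16 tags (9.15 to 26.0), and H2ac18 had 15 tags (8.40 to 24.7) at its own start besides a region shared with H3c14. H2bc6 had 18 tags (10.7 to 28.4) with 7.72, and H2bc14 had a weak region of 10 tags (4.80 to 18.4).

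**Figure D4:**
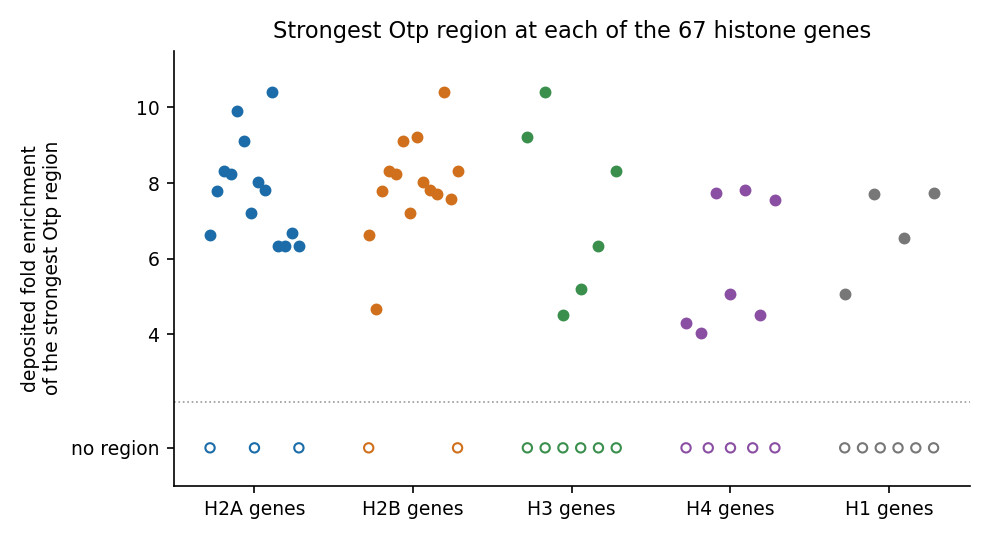
Deposited fold enrichment of the Otp region with the highest −log10 q at each of the 67 histone genes, by class, with genes that have no region as open circles below the dotted line. The filled points lie between 4.05 and 10.4 in every class together, and H3, H4 and H1 genes have open circles for 6, 5 and 6 genes.

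Of the 12 H3 genes, 6 had a region (50%, 21.1 to 78.9%), against 5.26% of genes of like length. The interval holds the 27.2% of all protein-coding genes. The one at H3c6 was the strongest at any histone gene by −log10 q, the deposited significance (19.4, rank 1420 of 11379). It covered chr13:23562384-23562521, with its summit 74 bp upstream of the start, 27 tags (17.8 to 39.3) and 10.4-fold enrichment. H3c7 had a region of 25 tags (16.2 to 36.9) and 9.23-fold enrichment whose summit lay inside the gene, 283 bp from an end. That region also counted for H2bc9, 891 bp upstream of the H2bc9 start. A weaker region of 15 tags, 116 bp upstream of the H2bc9 start, counted for both genes as well. On chromosome 3, H3c14 had 19 tags (11.4 to 29.7) and H3c15 had 15 tags (8.40 to 24.7), with summits 131 and 129 bp upstream. H3c13 and H3c1 were counted through regions that lay nearer to a neighbour, H2bc18 with 23 tags (14.6 to 34.5) and 8.31-fold enrichment and H4c1 with 14 tags (7.65 to 23.5). H3c2, H3c3, H3c4, H3c8, H3c10 and H3c11 had none.

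Of the 12 H4 genes, which all encode a core histone that is nearly invariant among species, 7 had a region (58.3%, 27.7 to 84.8%), against 2.23% of genes of like length and 27.2% of all protein-coding genes. H4c14 had 20 tags (12.2 to 30.9), H4c6 had 18 tags (10.7 to 28.4) and H4c3 had 16 tags (9.15 to 26.0), with fold enrichments of 7.55, 7.74 and 7.82. H4c1, H4c4 and H4c17 were weaker, with 14, 11 and 10 tags. At H4c8 the region lay beyond the far end of the gene, 695 bp downstream of the start, with 12 tags (6.20 to 21.0). H4c2, H4c9, H4c11, H4c12 and H4c18 had none. The 11 H3 and H4 genes without a region had their nearest Otp summit 1094 to 12985 bp from an end, outside the window of 1 kb.

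Of the 10 H1 genes, 4 had a region at an end (40.0%, 12.2 to 73.8%), against 6.88% of genes of like length. The interval holds the 27.2% of all protein-coding genes. In all 4 it lay beyond the far end of the gene, and no summit lay in the 250 bp upstream of an H1 start. At H1f2 both regions lay beyond the far end, 257 and 545 bp from it, with 13 tags (6.92 to 22.2) and 9 tags (4.12 to 17.1). At H1f3 the summit was 403 bp beyond the far end, with 12 tags (6.20 to 21.0). The region of H1f4 was that of H2bc6, 110 bp from an end of H2bc6 and 543 bp from H1f4, so it stood at the H2bc6 promoter. The region of H1f0, the linker histone of differentiated cells, lay 34 bp from an end of its neighbour Gcat and 336 bp from H1f0. H1f1 and H1f5 of the chromosome 13 cluster and H1f10 on chromosome 6 had none. Nor did H1f6 and H1f7 of male germ cells and H1f8 of the oocyte. With H2ac1 and H2bc1, 0 of 5 germ cell histone genes had a region, a grouping made after their values were seen.

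Where the promoter table gave a strand, the position of the summit could be read from the start of the gene. It did so for 62 of the 67 genes (H2bc4, H2bc21, H3c1, H3c7 and H4c14 are not in it). Of the 62, 37 had an Otp summit within 1 kb of the start (59.7%, 46.4 to 71.9%), against 29.5% of the protein-coding genes with a promoter entry. The nearest summit was upstream of the start in 31 of the 37 (83.8%), and all 31 were within 250 bp. Among 5124 other protein-coding genes it was upstream in 83.7% and within 250 bp upstream in 75.3%. Of the 33 regions, 26 had a summit from 228 bp upstream to 7 bp downstream of a histone start, with a median of 110 bp upstream. The median distance over genes was 75 bp upstream for H2A, 119 bp for H2B and 91 bp for H4.

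**Figure D5:**
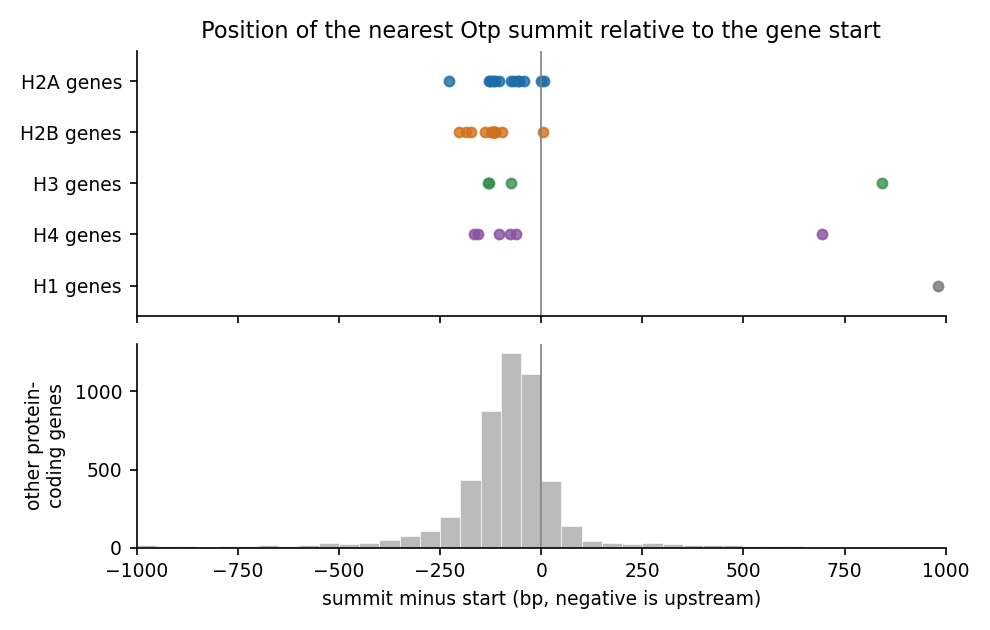
Position of the nearest Otp summit relative to the gene start in bp, negative upstream, for 37 histone genes by class (top) and as a histogram in bins of 50 bp for 5124 other protein-coding genes (bottom). Of the 37 histone summits, 31 lie within 228 bp upstream, those of H2ac19, H2bc14 and H2ac8 lie 0 to 7 bp downstream, and those of H4c8, H3c13 and H1f2 lie 695 to 981 bp downstream.

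Inside the clusters, almost every Otp region was at a histone gene. The stretches that hold the members of chromosomes 13 and 3 add up to 411 kb and contained 33 Otp regions, of which 32 were at a histone gene end. These stretches run from the first to the last member, so the windows of 1 kb at gene ends fill part of them by construction. The part filled was not worked out, and the count of 32 has no expected value beside it. The remaining one (chr13:23585896-23586125, 16 tags, fold enrichment 6.99) lay 40 bp downstream of the second annotated start of H2bc6. The 9 other protein-coding genes were counted in wider spans, which also take in gaps between stretches of chromosome 13. These spans were chr13:21715711-22043658, chr13:23531044-23934913 and the stretch of chromosome 3. None of the 9 genes had a region (0%, 0 to 33.6%), and the interval holds the 27.2% of all protein-coding genes. The 9 were the zinc finger gene Zfp184, Pom121l2, the protease gene Prss16, the iron regulator Hfe, Trim38 and the phosphate transporter genes Slc17a1, Slc17a2, Slc17a3 and Slc17a4. By stretch, 11 of 17 genes had a region in the first part of the chromosome 13 cluster, 4 of 5 in the second, 20 of 29 in the third and 9 of 10 on chromosome 3. H2ac1 and H2bc1 form an outlying stretch of chromosome 13, without a region. No IgG region lay in any of these stretches.

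Motifs in the promoters were not used to choose the genes. CCAAT was found in 51 of 62 histone promoters (82.3%), against 37.4% of all 32851 promoters in the table and 50.1% of protein-coding promoters with a region. It was present in all 17 H2A, all 14 H2B and all 10 H3 promoters but in 3 of 11 H4 promoters. TATAAA was in 54.8% of histone promoters, against 13.6% of all promoters and 5.27% of protein-coding promoters with a region. The octamer letters ATTTGCA were in 12 histone promoters (19.4%), all of H2A or H2B genes, against 4.02% of all promoters and 2.80% of protein-coding promoters with a region. GGGCGG was in 38.7% of histone promoters, against 35.7% of all promoters, 46.2% of protein-coding promoters and 70.8% of protein-coding promoters with a region, so the direction depends on the set compared. It was in 8 of the 11 H4 promoters. The homeodomain core TAATTA was in 2 histone promoters (3.23%), those of H1f3 and H3c4, against 5.29% of all promoters and 2.27% of protein-coding promoters with a region, so here too the direction depends on the set. Neither had a summit in the window. A match is a description of the letters and not of a bound site.

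The motifs were present in promoters with and without a region. CCAAT was in 37 of 41 promoters of genes with a region (90.2%) and in 14 of 21 of genes without (66.7%), and TATAAA in 51.2% and 61.9%. H2ac1, printed above and without a region, matches the CCAAT box, the TATA box and the octamer letters, as H2ac12 does. At the 24 summits that fell in a promoter window with a CCAAT match, the nearest CCAAT lay a median of 16 bp from the summit (middle of the box), and 13 were within 20 bp. CCAAT recurs in these promoters, and no comparison was made for this distance.

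Histone promoters were lower in GC content than other promoters with a region. Their median was 45.7%, both in all 62 and in the 41 of genes with a region, against 62.0% in protein-coding promoters with a region. The median number of CG dinucleotides was 12 in histone promoters with a region, against 23. Of the 30 histone promoters in the interquartile range (GC 41.8 to 51.3%), 23 had a summit within 1 kb of the start (76.7%, 57.7 to 90.1%). Of 4615 promoters of other protein-coding genes with the same GC content, 10.8% had one. Over all 62 histone promoters the share was lower, at 59.7%, and promoters outside this GC range were not compared.

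Some histone promoters are near copies of each other, and reads from such copies cannot be placed with certainty. H4c17 and H4c18 had promoters that were 99.0% identical, and H4c17 had a region of 10 tags while H4c18 had none. H3c14 and H3c15 were 90.2% identical. In 9 of the 62 promoters over 50% of all stretches of 36 bases recurred in a promoter elsewhere (69.4 to 100%): H2ac18, H2ac19, H2ac23, H2ac24, H2bc23, H3c14, H3c15, H4c17 and H4c18. Of these 9 genes 8 had a region, and values at them are uncertain. The sources used here do not state how reads with several placements were treated.

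Genes that regulate or handle histones had regions as well. Of 19 genes of histone transcription and mRNA processing, Otp regions were at the ends of 15 (78.9%, 54.4 to 93.9%), against 32.5% in genes of like length. The highest were Casp8ap2 (FLASH) with 45 tags and a fold enrichment of 17.7, and Npat with 39 tags and 16, both components of the nuclear body at histone loci. Pou2f1, the octamer-binding factor Oct-1, had 43 tags and 12.7. Nfya, a subunit of the factor that binds CCAAT, had 49 tags and 11.6, although Oard1 was nearer to that summit. Slbp, which binds the stem-loop of histone mRNAs, had 18 tags and 5.99. Cpsf2, Eri1, Ncbp2 and Nfyc had none. Hinfp, a factor for H4 transcription, was the single gene of these lists with an IgG region at an end.

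Of the 17 histone chaperones, 14 had a region (82.4%, 56.6 to 96.2%), against 32.3% in genes of like length. Hjurp, the chaperone of the centromeric H3 variant, had 70 tags and a fold enrichment of 15.4, Nap1l1 had 33 and 15.2, Asf1b had 30 and 12.9 and Anp32e had 25 and 12.5. Nasp, Atrx and Supt16 had none. Of 20 S phase genes 15 had a region (75%, 50.9 to 91.3%), against 30.2%, led by the replicative helicase subunit Mcm4 with 34 tags and 16.5, whose summit was nearer to Prkdc. Rrm1, of ribonucleotide reductase, followed with 27 and 14.0, Mcm3 with 24 and 13.7 and Top2a with 22 and 13.2. Rrm2, Tyms, Prim1, Ccne2 and Cdk2 had none.

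Of 9 genes for histone variants made outside S phase, 5 had a region (55.6%, 21.2 to 86.3%), against 25% in genes of like length. H2az1 had 43 tags and a fold enrichment of 14.4, H2ax, the variant phosphorylated at DNA breaks, had 32 and 12.4, H2az2 had 26 and 10.4 and H2aj had 26 and 9.22. At the 67 histone genes the highest values were 28 tags and 10.4. H3f3a and H3f3b, which encode the replacement histone H3.3, had none, with the nearest summits at 34770 and 1293 bp, nor had Macroh2a1 and Macroh2a2.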

How the data were processed

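CUT&RUN was measured in PVN nuclei, with 1 library for Otp and 1 for IgG, grouped by the antibody label. Per the submitters' processing notes, the authors used Trimmomatic, Bowtie2, Picard, SAMtools and MACS2 with build mm10. The sources used here do not state versions, settings, duplicate handling or use of a control. The deposited peak lists hold 11379 Otp and 291 IgG regions, 1 list per library, with a fold enrichment (a ratio), −log10 p and −log10 q. The deposited display score was not used. Total depth is unknown.

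Pileups in tags were solved from the deposited fold and p, as MACS2 defines them (tolerance 0.001, next whole number off by over 0.005), for 11182 Otp and 262 IgG regions, and the calculation was checked on simulated data. Genome background is the lowest local background shared by at least 3 regions. Gene positions and promoters are RefSeq's for GRCm38.p6. Length-matched genes are non-members within 20% of a member's length, averaged over members. Promoter identity is from global alignment. Python 3.11.15, numpy 2.4.6, scipy 1.17.1, pandas 2.3.3, biopython 1.88 and matplotlib 3.10.9 were used.

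Members, lists and comparisons were chosen with earlier results of these data known. The pairs, the GC comparison, the comparison of promoter copies and the scaling to IgG were chosen after seeing the data. Named genes are the members, with full values for the regions highest in −log10 q and for others where a statement turns on them. Of each list, up to 4 genes by fold are named, besides Slbp, Hinfp and, cell type markers apart, the genes without a region. Alternatives varied the window, the threshold, IgG overlap, gene assignment and length matching.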

Additional observations from a re-analysis of the deposited data

How the results depend on the processing

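With a −log10 q threshold of 10, the share of histone genes with an Otp region was 38.8% and the distinct regions numbered 16, against 13.4% of all protein-coding genes and 2.08% of length-matched genes. Within 5 kb the share was 88.1%, against 34.4% of all and 12.7% of length-matched genes. With each region given to the nearest gene alone it was 46.3%, against 23.7% and 5.94%. With only regions that scale to at least 4 IgG tags by the background ratio, chosen after seeing the data, the share was 14.9% over 6 regions, against 6.48% and 0.775%. The other 8 alternatives for this share gave 56.7 to 69.8%: 500 bp, thresholds of 5 on −log10 q or on fold, no IgG overlap, starts alone, clustered genes alone, older symbols and no near-identical promoters. The last of these covered 58 genes, without H3c14, H3c15, H4c17, H4c18 and the 5 genes that lack a promoter entry. It kept H2ac18, H2ac19, H2ac23, H2ac24 and H2bc23, whose promoters also recur in part elsewhere, so it does not cover all copied promoters. Under the alternatives of window and threshold the share stayed 6.94 to 18.7 times that of length-matched genes. The IgG share was 0% under all 5 alternatives run for it. Total depth is unknown, and the shallow IgG library limits any comparison at these regions. No paired analysis was possible because Otp and IgG have a single library apiece. For the same reason leaving out a library was not an option.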

Other observations

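Histone genes whose current symbol falls outside the naming rule but whose older symbol begins with Hist numbered 4, and 3 had an Otp region at an end. H2bu2 (Hist3h2ba) on chromosome 11 had 16 tags (95% Poisson interval 9.15 to 26.0) with the summit 139 bp from an end, and H2aw (Hist3h2a) had 18 tags (10.7 to 28.4) at 106 bp. H4bc24, listed as Hist1h2br in older symbols, had the region of H2ac24, which it faces. H4f16 (Hist4h4), an H4 gene on chromosome 6, had none within 3769 bp.

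CUT&RUN for a transcription factor does not measure expression, so the labelled cell type could not be checked by transcripts. Of 5 neuronal marker genes, Syt1 and Snap25 had an Otp region at an end, with 16 and 13 tags. Of 5 oligodendrocyte markers Mbp had one, with 10 tags, and 0 of 5 astrocyte, 0 of 5 microglial and 0 of 3 endothelial markers had one. Genes of like length had a region in 27.6% of cases for the neuronal markers and in 25.3 to 31.8% for the other lists. With lists of this size the counts do not separate the cell types and are no check of the label.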
